A study of Mus musculus with 9 samples.

Results

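The Wnt genes described here are a list of 53 mouse genes that encode Wnt ligands, their receptors, their antagonists and the proteins that carry the signal. They were read in 9 RNA-Seq libraries of AdvSca1-SM cells, which are adventitial progenitor cells derived from arterial smooth muscle and marked by Sca1. By role the list holds 13 Wnt ligands, 8 Frizzled receptors, 5 co-receptors, 6 R-spondins and Lgr receptors, 7 secreted antagonists, 4 other inhibitors, 8 intracellular effectors and 2 genes of ligand secretion. All 53 were found by symbol among the 55416 genes of the count table. A filter on low counts kept 44 of them among the 14879 genes that were tested, and the other 9 are given as raw counts. A gene that is abundant in 1 group only can pass the filter through that group, so counts over tested members are descriptions of this list.

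The cells had been sorted as YFP+ and Sca1+ cells from the pooled aortas and carotid arteries of 8-week-old SM22α-Cre-YFP mice, in which Cre is driven by a smooth muscle promoter, and were then cultured. They were maintained with 10% FBS, 1 ng/mL bFGF and 5 ng/mL EGF and were growth arrested for 24 h in 0.1% FBS. The Stem group received vehicle, and the study describes it as kept in stem cell medium. The TGF-β group received 5 ng/mL TGF-β1, a cytokine widely used to turn fibroblast-like cells into myofibroblasts, in DMEM with 0.1% FBS. The Both group received the same with 50 μM PFI-3, which occupies the bromodomain of the chromatin remodeler Brg1. All cells carried 0.1% DMSO, were harvested at 72 h and have the same SM22α-Cre-YFP genotype. Each group had 3 libraries, and nothing in the labels says whether they came from separate isolations, so p-values measure the spread between these libraries. Medium and TGF-β1 changed together between Stem and TGF-β and cannot be told apart, whereas TGF-β and Both differed in PFI-3.

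Wnt proteins are secreted lipid-modified ligands. In the β-catenin branch a Wnt joins a Frizzled receptor to Lrp5 or Lrp6, the complex of Axin and APC stops degrading β-catenin, and β-catenin acts with TCF/LEF factors on target genes. In the other branches, in which Ror1, Ror2 and Ryk take part, Wnts act on cell polarity, movement and calcium. SFRP and Dickkopf proteins and Wif1 hold the pathway back outside the cell, R-spondins raise Frizzled levels through Lgr receptors and the ubiquitin ligases Znrf3 and Rnf43, and Wnt signaling is known to take part in fibroblast activation and to interact with TGF-β signaling.

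Total counts ran from 35686291 to 47741128 per library, of which the 53 genes held between 0.391% and 0.867%. Values are given as normalized counts, which are read counts scaled by edgeR's TMM factors to a library of 41184338 reads. The limit of detection was set at 3 raw counts, which is between 2.63 and 3.26 normalized counts and covers counting error only. Stem library 2 stood apart from the other Stem libraries. The chi-square of its counts per degree of freedom was 123 and 101 against Stem libraries 1 and 3, and every other pair of libraries within a group lay between 5.70 and 15.6. It was the highest Stem library in *Wnt2*, *Wnt16*, *Sfrp2*, *Dkk2*, *Rspo2* and *Porcn*, and values without it are given where leaving it out changed a call. The cell type was checked on markers. The summed normalized counts of 6 AdvSca1-SM genes (among them *Ly6a*, which encodes Sca1, *Cd34* and *Pdgfra*) ran from 50989 to 59312 over the Stem libraries, from 12195 to 12314 over TGF-β and from 10605 to 11137 over Both. Most of this sum was *Pdgfra* in Stem (45657 on average), and the list did not move as one. *Ly6a*, *Cd34*, *Pdgfra* and *Scara5* fell past 2-fold with TGF-β1, whereas *Pi16* rose from a mean of 508 in Stem to 5771 in TGF-β and 3828 in Both, and *Dpp4* was too low to test. The extraction label speaks of liver, and 7 of 7 hepatocyte genes had at most 3 raw counts in every library.

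For 32 of the 53 genes a promoter window of RefSeq (GRCm38.p6) was used, with 42 windows in all. A window ran from 250 bases before to 50 bases after a transcription start. Windows of listed genes on a single chromosome were left out, whereas the set of all windows was not filtered by chromosome. The read counts were made on GRCm39, so these coordinates describe the sequences only. The 250 bases upstream of the start of 4 genes are shown, because the ligands *Wnt10b* and *Wnt9a* were among the 3 that rose most in fold, *Sfrp2* fell most in fold, and *Axin2* is a textbook β-catenin target. Capitals mark a SMAD core, CAGAC or its reverse complement GTCTG, and all else is in lower case.
*Wnt10b* (chr15:98778151-98778400, minus strand): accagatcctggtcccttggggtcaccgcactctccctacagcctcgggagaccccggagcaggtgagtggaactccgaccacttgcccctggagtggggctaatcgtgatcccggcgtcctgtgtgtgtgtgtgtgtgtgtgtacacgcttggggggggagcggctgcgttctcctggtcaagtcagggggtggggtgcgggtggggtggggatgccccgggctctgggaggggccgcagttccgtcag
*Wnt9a* (chr11:59306680-59306929, plus strand): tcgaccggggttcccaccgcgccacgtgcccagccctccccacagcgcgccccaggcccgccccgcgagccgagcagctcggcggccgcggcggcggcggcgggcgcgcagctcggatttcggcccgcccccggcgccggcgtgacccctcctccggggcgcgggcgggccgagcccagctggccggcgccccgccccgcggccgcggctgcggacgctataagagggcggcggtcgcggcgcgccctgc
*Sfrp2* (chr3:83766071-83766320, plus strand): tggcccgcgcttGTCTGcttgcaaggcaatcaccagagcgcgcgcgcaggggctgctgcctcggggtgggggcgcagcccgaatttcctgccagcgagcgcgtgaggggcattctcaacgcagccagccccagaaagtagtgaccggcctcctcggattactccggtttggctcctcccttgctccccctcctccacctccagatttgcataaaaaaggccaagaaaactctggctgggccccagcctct
*Axin2* (chr11:108920099-108920348, plus strand): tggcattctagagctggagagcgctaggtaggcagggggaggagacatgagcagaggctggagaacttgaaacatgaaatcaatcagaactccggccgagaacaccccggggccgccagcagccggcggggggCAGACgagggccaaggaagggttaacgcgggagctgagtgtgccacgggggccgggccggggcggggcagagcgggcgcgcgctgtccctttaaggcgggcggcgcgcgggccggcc
The *Sfrp2* sequence holds GTCTG starting 238 bases before the start, and the *Axin2* sequence holds CAGAC starting 117 bases before it. In *Wnt9a* the match GTCTG lay 20 bases after the start, outside the stretch shown, and *Wnt10b* had none. Over the 42 windows of 300 bases, searched on both strands, the SMAD core CAGAC was found in 22 (52.4%), against 49.6% of all 32851 windows of the table. The TCF/LEF letters CTTTGAT or CTTTGAA were found in 3 (7.14%), in windows of *Wnt5b*, *Wnt11* and *Dkk1*, against 8.65% of all windows. The AP-1 letters TGAGTCA or TGACTCA were found in 2 (4.76%), of *Wnt5b* and *Ror2*, against 5.20%, and the SMAD palindrome GTCTAGAC in 0 against 0.213%. None of these motifs contains another. The windows of these genes had a median GC content of 66.5% and a median of 24 CpG, against 52.7% and 7 over all windows. A match is a description of the letters and not a binding site.

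Between Stem and TGF-β, secreted antagonists were lower with TGF-β1 and the ligands moved in both directions. Of the 7 antagonists, 5 fell past the threshold and the other 2 were near the limit of detection. *Wnt9a* rose 11.3-fold, *Wnt2* 11.6-fold and *Wnt10b* at least 87.4-fold, while *Wnt4*, *Wnt5b* and *Wnt16* fell between 3.59-fold and 4.30-fold. Genes were called by edgeR's quasi-likelihood test, with p-values adjusted over all tested genes by the Benjamini-Hochberg method, at an adjusted p below 0.05 and a change over 2-fold, the threshold of the study. By this rule 7 of the 53 genes rose, 15.9% of the 44 tested, against 10.6% of all tested genes, and 13 fell, 29.5%, against 14.5%. At an adjusted p below 0.05 with no minimum change, 18 rose and 22 fell, which is 40.9% and 50.0% of the 44 tested, against 37.3% and 37.7%. The median log2 fold change was -0.34 over the 44 members and -0.00 over all tested genes, and the median size of change, without its sign, was 0.906 against 0.490. In bulk RNA, fewer expressing cells and less RNA per cell cannot be told apart, in these results and those that follow.

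Among the 13 ligands, 4 rose and 3 fell past the threshold, 44.4% and 33.3% of the 9 tested. The shares over all tested genes were 10.6% and 14.5%. Another 2 ligands changed by less than 2-fold. *Wnt10b* (ENSMUSG00000022996), known for holding back fat cell formation and promoting bone formation, had 0, 0 and 0 normalized counts across Stem, 233, 323 and 287 across TGF-β and 148, 174 and 139.6 across Both. No read of it was counted in any Stem library, so its rise in TGF-β is given as at least 87.4-fold, set against 3 counts per Stem library (adjusted p = 4.92e-09 from edgeR's test). *Wnt10b* passed the filter on low counts through the TGF-β and Both libraries only, and it is counted among the 7 genes of the list that rose. *Wnt9a* (ENSMUSG00000000126), a ligand with a role in joint formation, had 127, 137 and 98.4 normalized counts across Stem, 1287, 1380.3 and 1422 across TGF-β and 1252, 1339 and 1221 across Both. The groups Stem and TGF-β did not overlap, and the rise was 11.3-fold (95% confidence interval 3.29 to 3.70 on the log2 scale, adjusted p = 9.95e-12). *Wnt2* (ENSMUSG00000010797), a ligand of the β-catenin branch, had 11.5, 27.2 and 17.3 normalized counts across Stem, 238, 227 and 188 across TGF-β and 165, 171 and 169 across Both. Every TGF-β library lay far above the highest Stem library, library 2, and the rise was 11.6-fold (log2 fold change 3.54, standard error 0.200, adjusted p = 8.60e-09), or 3.91 on the log2 scale without Stem library 2. *Wnt11*, which acts on cell movement in the embryo, was low in all libraries, with 3.14, 4.35 and 4.33 normalized counts across Stem, 16.2, 17.2 and 14.6 across TGF-β and 6.30, 7.90 and 11.4 across Both. Its log2 fold change was 1.99 (95% confidence interval 1.21 to 2.78, adjusted p = 2.94e-04).

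*Wnt5a* (ENSMUSG00000021994), the best-known ligand of the β-catenin-independent branches, was the most abundant ligand per length in all 9 libraries, with 2464, 2331 and 2643 normalized counts across Stem, 3918, 4229 and 4026 across TGF-β and 3905, 4082 and 3892 across Both. Its rise was smaller than that of the other ligands that rose, 1.64-fold (adjusted p = 6.28e-08), though without overlap between Stem and TGF-β. Its close paralog *Wnt5b* moved the other way, with 182, 205 and 202 normalized counts across Stem, 57.2, 54.8 and 50.8 across TGF-β and 60.3, 67.1 and 63.2 across Both, a 3.62-fold fall (adjusted p = 2.02e-08). *Wnt4*, a ligand of kidney and gonad development, had 143, 143 and 155 normalized counts across Stem, 44.2, 40.6 and 38.1 across TGF-β and 53.1, 45.4 and 51.8 across Both. It fell 3.59-fold (adjusted p = 6.41e-08), and all Stem libraries lay over 3 times above every TGF-β library. *Wnt16*, known for its part in bone thickness, had 92.1, 155 and 93.0 normalized counts across Stem, 31.3, 24.3 and 23.4 across TGF-β and 16.2, 21.7 and 34.2 across Both. It fell 4.30-fold (adjusted p = 2.42e-05), with a log2 fold change of -2.11 that was -1.81 without Stem library 2. *Wnt2b*, a relative of *Wnt2*, had 132, 141 and 124 normalized counts across Stem and 79.9, 87.2 and 77.1 across TGF-β and fell 1.63-fold (adjusted p = 1.11e-04). The other 4 ligands were not tested. *Wnt3* had at most 1 raw count in any library, *Wnt7b* at most 2 and *Wnt6* at most 5. *Wnt10a*, a paralog of *Wnt10b*, had 0, 0 and 0 raw counts across Stem, 2, 5 and 4 across TGF-β and 5, 3 and 1 across Both.

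**Figure D1:**
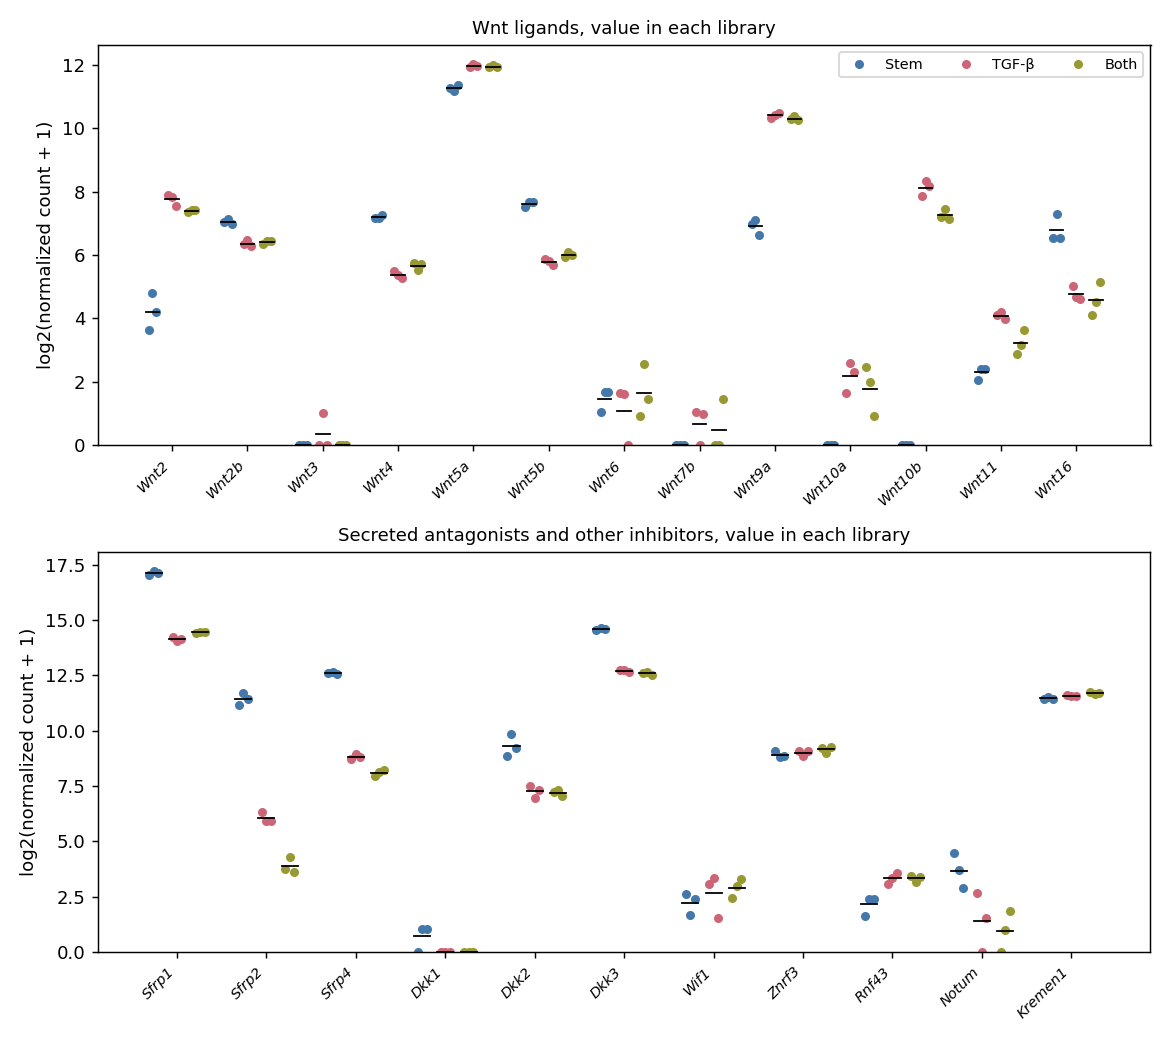
Values of the 13 Wnt ligands (top) and of the 11 secreted antagonists and other inhibitors (bottom) in each library, as log2(normalized count + 1), with black bars at the mean of 3 libraries on that scale. *Wnt10b* was at 0 in every Stem library and *Sfrp2* stepped down from Stem to TGF-β to Both, whereas *Kremen1* and *Znrf3* were nearly level.

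The 3 largest falls in fold among the tested genes of the list were those of secreted antagonists. *Sfrp1*, *Sfrp2* and *Sfrp4* encode secreted Frizzled-related proteins, which bind Wnts through a domain like that of Frizzled. *Sfrp1* (ENSMUSG00000031548), the most abundant of the 53 genes per length in Stem, had 133891, 153164 and 143435 normalized counts across Stem, 19314, 17126 and 18212 across TGF-β and 21859, 22231 and 22382 across Both. The lowest Stem library lay far above the highest TGF-β library, and the fall was 7.88-fold (log2 fold change -2.98, 95% confidence interval -3.11 to -2.85, adjusted p = 1.23e-12). *Sfrp2* (ENSMUSG00000027996) had 2269, 3339 and 2746 normalized counts across Stem, 79.9, 58.8 and 59.6 across TGF-β and 12.6, 18.8 and 11.4 across Both. It fell 42.2-fold with TGF-β1 (log2 fold change -5.40, standard error 0.166, adjusted p = 3.32e-11), and by -5.24 on the log2 scale without Stem library 2. *Sfrp4* (ENSMUSG00000021319) had 6266, 6342 and 6071 normalized counts across Stem, 417, 496 and 452 across TGF-β and 246, 280.3 and 303 across Both. The 3 groups formed separate levels, and the fall from Stem to TGF-β was 13.7-fold (log2 fold change -3.77, standard error 0.0703, adjusted p = 7.39e-13).

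Of the Dickkopf genes, *Dkk2*, whose product binds Lrp5 and Lrp6, had 456, 924 and 592 normalized counts across Stem, 181, 125 and 160.1 across TGF-β and 149, 157 and 132 across Both. It was uneven within Stem, where library 2 was the highest, and fell 4.23-fold (log2 fold change -2.08, adjusted p = 4.28e-06), with a log2 fold change of -1.75 without that library. *Dkk3*, a divergent family member whose action on Wnt is less clear, had 24294, 25138 and 24384 normalized counts across Stem, 6809, 6779.6 and 6379 across TGF-β and 6269, 6380.3 and 5939 across Both. It was even within each group and fell 3.70-fold (adjusted p = 2.78e-12). *Dkk1* had at most 1 raw count in any library and *Wif1* between 2 and 10, and neither was tested. *Frzb*, a further secreted Frizzled-related gene that is no member of the list and is named after its values were seen, did not fall, with 16300.1, 17554 and 17026 normalized counts across Stem, 19169, 19208 and 18827 across TGF-β and 16181, 16399 and 15418 across Both and a log2 fold change of 0.17 (adjusted p = 0.00217).

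The 4 other inhibitors moved little or were scarce. *Kremen1*, a receptor for Dickkopf proteins, had 2786, 2899 and 2803 normalized counts across Stem and 3154, 3009 and 3037 across TGF-β, a change of 0.12 on the log2 scale (adjusted p = 0.0132) whose sign turned when libraries were scaled by total counts. *Znrf3*, a ubiquitin ligase that removes Frizzled from the cell surface, had 538, 442 and 469.5 normalized counts across Stem and 549, 458 and 541 across TGF-β, and the groups overlapped (adjusted p = 0.418). Its partner *Rnf43* had 2, 4 and 4 raw counts across Stem, 7, 9 and 11 across TGF-β and 11, 8 and 11 across Both and was not tested. *Notum*, an enzyme that strips the lipid from Wnt proteins, was not tested either and had 20, 11 and 6 raw counts across Stem, 5, 0 and 2 across TGF-β and 0, 1 and 3 across Both. Its Stem libraries lay above its TGF-β libraries at counts near the limit of detection.

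**Figure D2:**
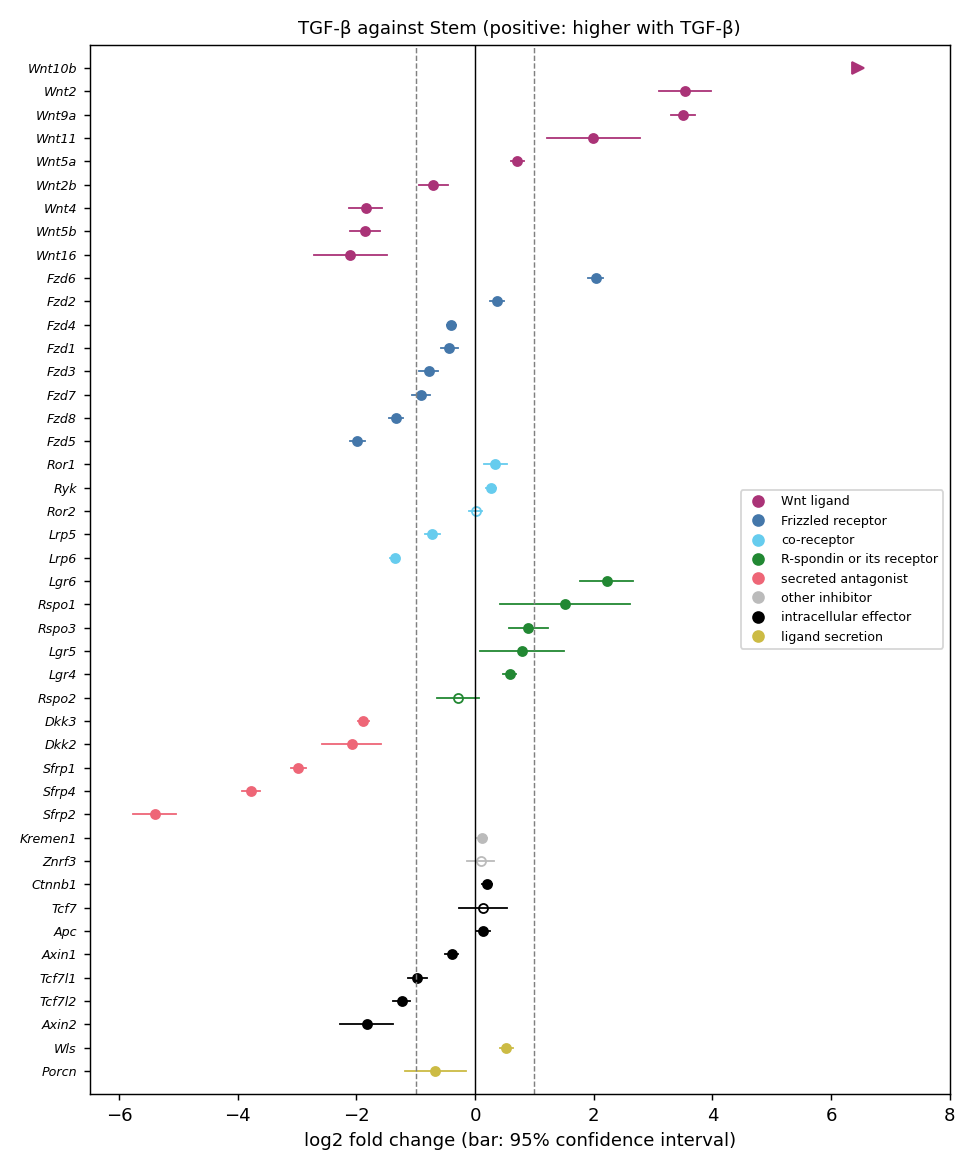
Log2 fold change of TGF-β against Stem for the 44 tested genes, colored by role, with 95% confidence intervals from edgeR's fit. Filled points have an adjusted p below 0.05, dashed lines mark 2-fold, and the arrowhead of *Wnt10b* marks its lower bound of 87.4-fold; the secreted antagonists lie to the left of the line at -1.

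All 8 Frizzled receptors were expressed. At an adjusted p below 0.05, 6 of them (75.0%) fell and 2 (25.0%) rose, against 37.7% and 37.3% of all tested genes. Past 2-fold, 2 (25.0%) fell and 1 (12.5%) rose, against 14.5% and 10.6%. *Fzd5* (ENSMUSG00000045005) had 3578, 4046 and 3804 normalized counts across Stem, 961, 960.4 and 968 across TGF-β and 948, 1018 and 916 across Both and fell 3.95-fold (log2 fold change -1.98, adjusted p = 1.38e-11). *Fzd8*, its closest relative, had 5149, 4426 and 4783 normalized counts across Stem, 1964, 1867 and 1859.9 across TGF-β and 1992, 1843 and 1927 across Both and fell 2.52-fold (adjusted p = 4.96e-10). Stem lay above TGF-β in every library of both genes. *Fzd6* (ENSMUSG00000022297), known for planar polarity of skin and hair, had 406, 378 and 363 normalized counts across Stem, 1532, 1587 and 1568 across TGF-β and 1470.3, 1423 and 1361 across Both and rose 4.08-fold (log2 fold change 2.03, adjusted p = 1.21e-11). *Fzd3*, the relative of *Fzd6*, moved the other way, with 606, 641 and 634 normalized counts across Stem and 358, 403 and 333 across TGF-β, a 1.72-fold fall (adjusted p = 9.08e-07).

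The related receptors *Fzd1*, *Fzd2* and *Fzd7* held most of the Frizzled level. *Fzd1* had 16674, 20092 and 18799 normalized counts across Stem and 14487, 12779 and 13758 across TGF-β and fell 1.35-fold (adjusted p = 6.32e-05). *Fzd7* had 7515, 7189 and 7402 normalized counts across Stem and 4079, 3553 and 4088 across TGF-β and fell 1.89-fold (adjusted p = 1.38e-07), just inside the 2-fold line. *Fzd2* rose 1.29-fold (adjusted p = 3.71e-05), with 5772, 5138 and 5588 normalized counts across Stem and 7343, 6927 and 7013 across TGF-β. *Fzd4*, which is also the receptor of norrin in the eye, fell 1.32-fold (adjusted p = 7.00e-07).

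The co-receptors of the β-catenin branch were lower with TGF-β1. *Lrp6* (ENSMUSG00000030201) had 28848, 30071 and 29521 normalized counts across Stem, 11750.3, 11172 and 11606 across TGF-β and 12640.1, 12241 and 12550.2 across Both and fell 2.56-fold (log2 fold change -1.36, adjusted p = 1.29e-11). *Lrp5* had 2349, 2247 and 2157 normalized counts across Stem, 1461, 1344 and 1299 across TGF-β and 1472, 1513 and 1394 across Both and fell 1.65-fold (adjusted p = 1.37e-07). The receptors of the other branches changed by less. *Ror1*, a receptor for Wnt5a, rose 1.26-fold (adjusted p = 0.00406) and *Ryk* 1.21-fold (adjusted p = 3.39e-05). *Ror2* had 1457, 1337 and 1451 normalized counts across Stem and 1410.4, 1451 and 1405 across TGF-β, the groups overlapped, and the 95% confidence interval of its log2 fold change ran from -0.10 to 0.12 (adjusted p = 0.902).

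**Figure D3:**
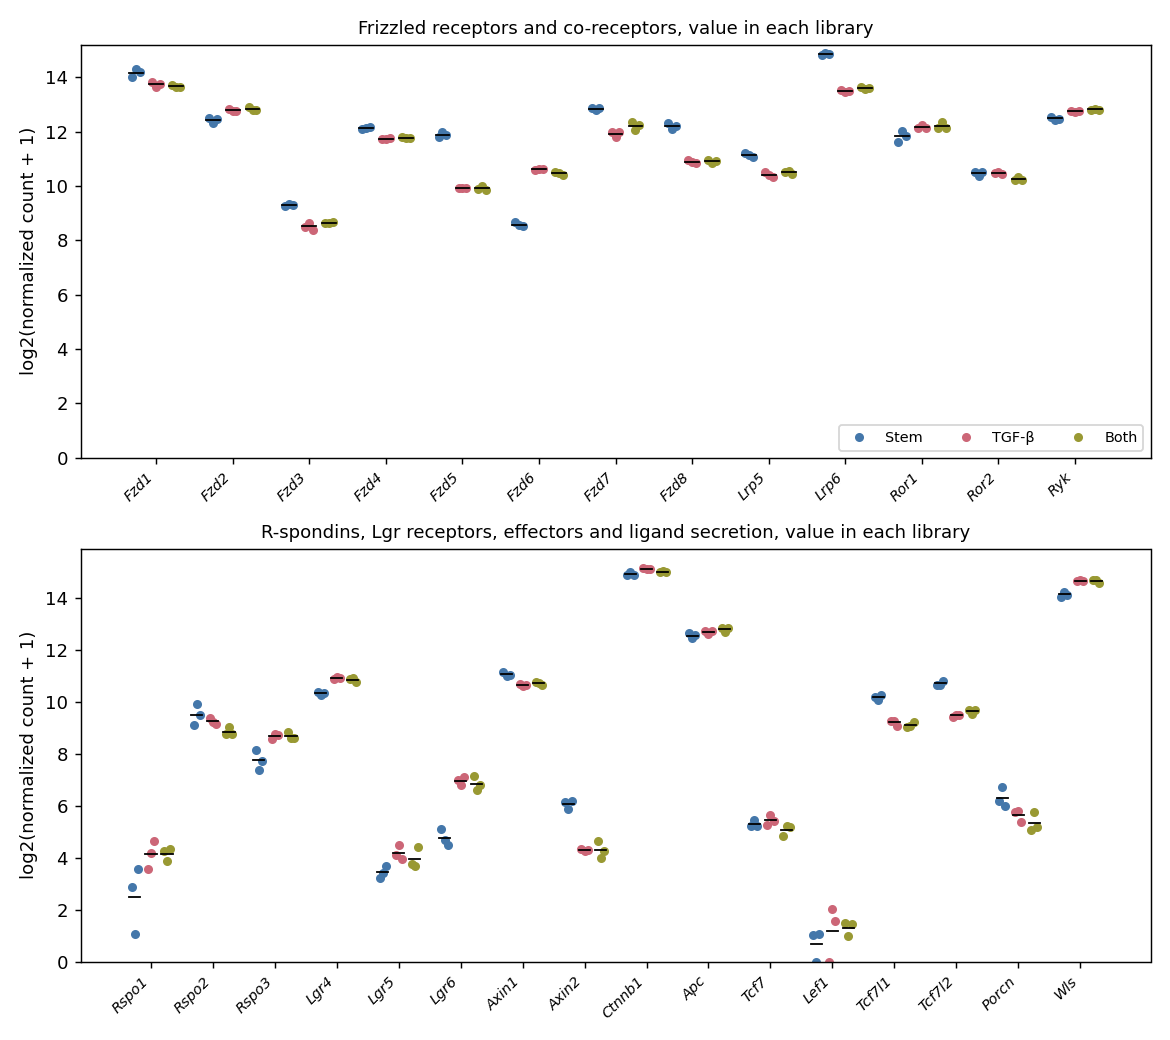
Values of the 13 Frizzled receptors and co-receptors (top) and of the 16 R-spondins, Lgr receptors, intracellular effectors and ligand secretion genes (bottom) in each library, as log2(normalized count + 1), with black bars at the mean of 3 libraries on that scale. *Fzd6* and *Lgr6* stepped up and *Fzd5*, *Lrp6* and *Tcf7l2* stepped down from Stem to TGF-β, and the TGF-β and Both points lie close together.

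The R-spondins and the Lgr receptors that bind them were higher or level with TGF-β1 in the main fit of all 9 libraries. That fit used TMM scaling and the filter on low counts, and none of the 6 passed the test as lower in it. *Lgr6* (ENSMUSG00000042793) had 33.5, 25.0 and 21.6 normalized counts across Stem, 126, 111 and 139 across TGF-β and 140.5, 97.7 and 111 across Both and rose 4.66-fold (log2 fold change 2.22, standard error 0.203, adjusted p = 7.91e-07). *Lgr4*, the main Lgr receptor of these cells, had 1349, 1254 and 1301 normalized counts across Stem, 1885, 2014 and 1953 across TGF-β and 1914, 1932 and 1763 across Both and rose by 0.58 on the log2 scale (adjusted p = 4.16e-07). *Lgr5*, a marker of intestinal stem cells, was scarce, with 8.38, 9.78 and 11.9 normalized counts across Stem and 16.2, 21.3 and 14.6 across TGF-β. Its adjusted p of 0.0425 was lost under 9 of the alternatives tried, and was between 0.0612 and 0.151 without any 1 of Stem libraries 1 and 2 and TGF-β libraries 1 and 2. *Rspo3* had 285, 168 and 213 normalized counts across Stem, 379, 433 and 431 across TGF-β and 458, 391 and 389.7 across Both and rose 1.86-fold (adjusted p = 1.55e-04), or by 0.74 on the log2 scale without Stem library 2, its lowest Stem library. *Rspo2* had 556, 982 and 718 normalized counts across Stem, 679.8, 597 and 574 across TGF-β and 438, 530.0 and 438 across Both. Its Stem and TGF-β values overlapped, with library 2 the highest of Stem, and the log2 fold change of -0.29 did not pass the test (95% confidence interval -0.64 to 0.07, adjusted p = 0.130). *Rspo2* passed as lower without Stem library 1, the lowest of Stem (-0.46, adjusted p = 0.00533 from edgeR's test). With all 9 libraries it also passed under scaling by total counts (-0.40, adjusted p = 0.0288) and with no filter on low counts (-0.28, adjusted p = 0.00422). *Rspo1* was scarce, with 6.28, 1.09 and 10.8 normalized counts across Stem, 10.8, 17.2 and 24.4 across TGF-β and 18.0, 13.8 and 19.3 across Both. It passed the threshold at a log2 fold change of 1.52 (adjusted p = 0.0157) although Stem library 3 lay at the level of TGF-β library 1; the log2 fold change was 1.05 without Stem library 2, and the adjusted p was 0.0760 without TGF-β library 3.

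Inside the cell, the β-catenin gene itself changed little. *Ctnnb1* (ENSMUSG00000006932), which encodes β-catenin, had 30896, 33238 and 30435 normalized counts across Stem and 36785, 36008 and 35992 across TGF-β and rose 1.15-fold (adjusted p = 6.58e-04). *Axin2* (ENSMUSG00000000142), a scaffold of the complex that degrades β-catenin and a feedback target of the pathway, had 70.1, 58.7 and 71.4 normalized counts across Stem, 19.4, 18.3 and 18.6 across TGF-β and 24.3, 14.8 and 18.4 across Both. Every Stem library lay more than 2-fold above every TGF-β and Both library, and the fall to TGF-β was 3.55-fold (log2 fold change -1.83, standard error 0.204, adjusted p = 4.95e-06). *Axin1*, the scaffold that is not a feedback target, fell 1.31-fold (adjusted p = 1.25e-05), and *Apc*, its partner, had 6434, 5698 and 6152 normalized counts across Stem and 6789.7, 6400.3 and 6895 across TGF-β, with overlapping groups and an adjusted p of 0.0423 that was lost under 7 of the alternatives, and was between 0.0732 and 0.114 without any 1 of Stem libraries 2 and 3 and TGF-β libraries 1 and 3. Of the TCF/LEF factors, *Tcf7l2* had 1617, 1636 and 1821 normalized counts across Stem, 683, 736 and 734 across TGF-β and 835, 740.3 and 829 across Both and fell 2.36-fold (adjusted p = 4.27e-09). *Tcf7l1*, often a repressor, had 1183, 1078 and 1251 normalized counts across Stem, 625, 621 and 546 across TGF-β and 529, 539.9 and 596 across Both and fell 1.96-fold (adjusted p = 1.56e-07), inside the 2-fold line and past it, at -1.02 on the log2 scale, without Stem library 2. *Tcf7* had 36.6, 43.5 and 36.8 normalized counts across Stem and 37.8, 48.7 and 42.0 across TGF-β, with overlap (adjusted p = 0.510), and *Lef1*, with 0 to 3 raw counts in every library, was not tested. In ligand secretion, *Wls*, which carries Wnts to the surface, had 16993, 19675 and 18152 normalized counts across Stem and 26209, 26576 and 26168 across TGF-β and rose 1.44-fold (adjusted p = 1.53e-06). *Porcn*, which adds the lipid, fell 1.59-fold, with 71.2, 104 and 62.7 normalized counts across Stem and 54.0, 54.8 and 41.0 across TGF-β, and its adjusted p of 0.0208 became 0.106 without Stem library 2 and 0.0902 without TGF-β library 3.

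Levels were compared between genes only per kilobase of exon, as normalized counts divided by the exon length of GENCODE's GRCm38 models, with no test. The summed level of the 13 ligands per kilobase was 530.0 ± 13.7 in Stem, 1169 ± 44.4 with TGF-β1 and 1074 ± 38.4 with PFI-3 added (mean ± SD of 3 libraries, as in the other sums and shares). *Wnt5a* made up 59.8% of it in Stem and 44.4% in TGF-β. *Wnt9a* went from 6.85% to 35.0%, *Wnt10b* from 0% to 7.04% and *Wnt2* from 1.56% to 8.28%, whereas *Wnt5b* went from 14.0% to 1.75% and *Wnt4* from 6.62% to 0.837%. The order of the leading ligands was therefore *Wnt5a*, *Wnt5b* and *Wnt9a* in Stem. There the share of *Wnt9a* (6.85% ± 1.21) overlapped, within the spread, those of *Wnt4* (6.62% ± 0.207), *Wnt2b* (5.96% ± 0.431) and *Wnt16* (4.91% ± 1.53). The place after *Wnt5b* was thus not settled. In TGF-β the order was *Wnt5a*, *Wnt9a* and *Wnt2*, and the shares of *Wnt2* (8.28% ± 1.12) and *Wnt10b* (7.04% ± 0.876) lay within their spread.

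The 7 secreted antagonists summed to 43109 ± 2654 per kilobase in Stem, 6332 ± 268 with TGF-β1 and 7028 ± 69.2 with PFI-3 added. Their summed level exceeded that of the ligands in all groups, and in TGF-β it was 6.81-fold lower than in Stem, while the summed ligand level was 2.21-fold higher. The antagonist sum covers genes of the list only. Outside it, *Frzb* had 5239 ± 194 per kilobase in Stem and 5891 ± 64.7 with TGF-β1. *Igfbp4*, a binding protein that can also hold back Wnt signaling, had 14281 ± 906 and 1206 ± 76.6. *Sfrp1* held 76.1%, 65.8% and 72.1% of the antagonist level in Stem, TGF-β and Both, and *Dkk3* 17.0%, 31.3% and 26.2%. The Frizzled sum was 9692 ± 276, 7375 ± 319.9 and 7484 ± 310.4 per kilobase in the 3 groups, led by *Fzd1* with 45.5%, 44.2% and 41.7%. *Fzd2* rose in share from 15.5% to 26.3% and 26.7% and *Fzd6* from 0.821% to 4.40% and 3.93%. *Lgr4* held between 94.3% and 97.8% of the Lgr level in the 3 groups, and *Rspo2* and *Rspo3* shared the R-spondin level, at 65.4% ± 12.2 and 33.1% ± 11.6 in the Stem libraries and at 45.8% ± 4.51 and 50.8% ± 3.34 with TGF-β1.

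**Figure D4:**
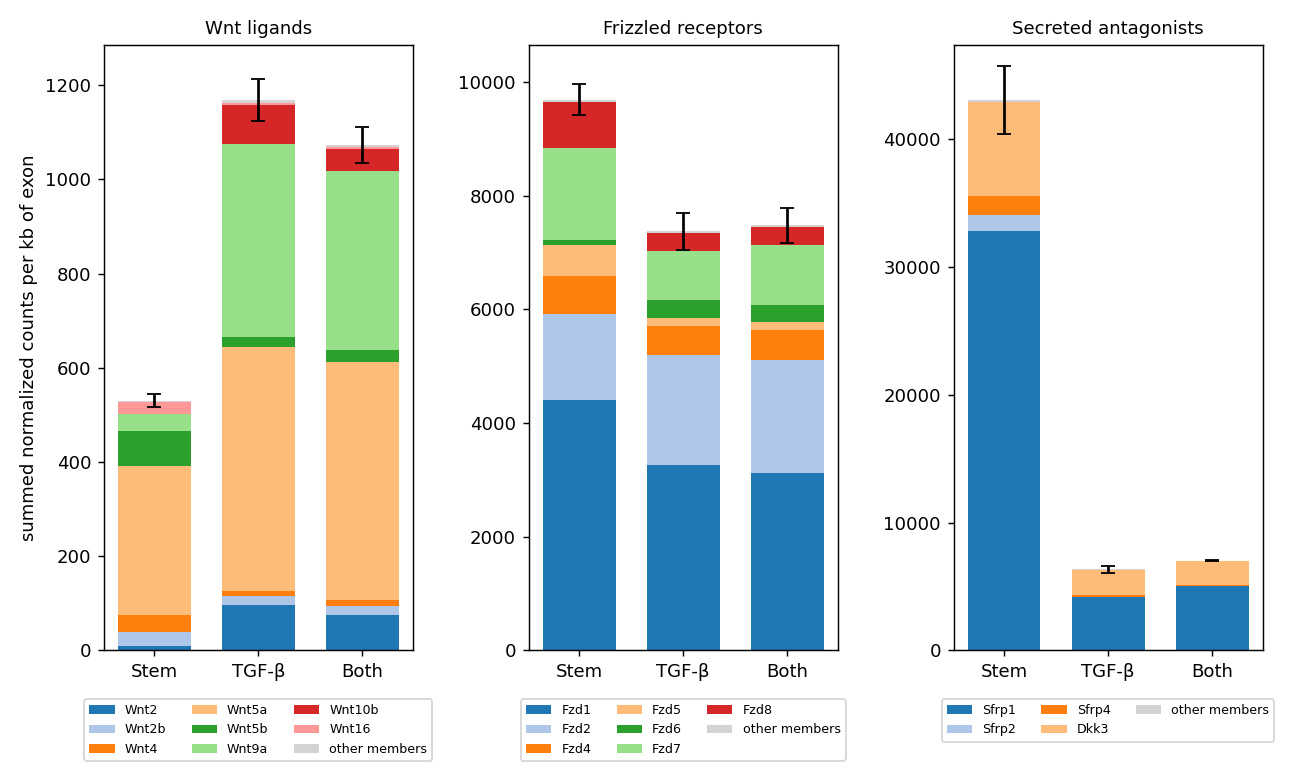
Summed normalized counts per kilobase of exon of the list's Wnt ligands, Frizzled receptors and secreted antagonists, stacked by gene as the mean of 3 libraries. Error bars give the SD of the sum, vertical scales are separate, and *Frzb* is not in the antagonist bar. The ligand bar is 2.21-fold higher in TGF-β than in Stem and the antagonist bar 6.81-fold lower, with *Wnt9a* filling much of the ligand rise.

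With PFI-3 added to TGF-β1, *Sfrp2* was the only gene of the 53 past the threshold, and it fell further from its Stem level. Its values were 79.9, 58.8 and 59.6 normalized counts across TGF-β and 12.6, 18.8 and 11.4 across Both, without overlap, a 4.63-fold fall (log2 fold change -2.21, standard error 0.343, adjusted p = 0.00203). That is 1 gene lower and 0 higher, 2.27% and 0% of the 44 tested, against 0.47% and 0.161% of all tested genes. The log2 fold change of *Sfrp2* stayed between -2.44 and -2.06 with each library left out in turn. With edgeR's TREAT test, which asks for a change over 2-fold, the call was lost. At an adjusted p below 0.05 with no minimum change, 4 of the 53 genes were lower and 2 higher, which is 9.09% and 4.55% of the 44 tested, against 5.38% and 3.54% of all tested genes. At an unadjusted p below 0.05 it was 10 and 5 of the 44 tested, against 12.5% and 11.5% of all tested genes. DESeq2, run in place of edgeR, called 1 lower and 0 higher past the threshold.

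*Sfrp4* also fell further from its Stem level, with 417, 496 and 452 normalized counts across TGF-β and 246, 280.3 and 303 across Both, 1.65-fold (log2 fold change -0.72, adjusted p = 2.37e-04). *Sfrp1* moved toward its Stem level by a small step, with 19314, 17126 and 18212 normalized counts across TGF-β and 21859, 22231 and 22382 across Both, 1.22-fold higher (log2 fold change 0.28, adjusted p = 0.00873), and had an adjusted p of 0.0515 without TGF-β library 2. The 3 SFRP genes of the list, all lower in TGF-β than in Stem, thus split with PFI-3 into 1 that was higher and 2 that were lower. *Wnt10b*, absent from the Stem libraries, had 233, 323 and 287 normalized counts across TGF-β and 148, 174 and 139.6 across Both and fell 1.83-fold (log2 fold change -0.87, adjusted p = 0.00430). The lowest TGF-β library lay above the highest Both library. *Fzd7* was 1.22-fold higher, with 4079, 3553 and 4088 normalized counts across TGF-β and 5184, 4285 and 4874 across Both (adjusted p = 0.0222), and *Ror2* 1.15-fold lower, with 1410.4, 1451 and 1405 normalized counts across TGF-β and 1196, 1299.9 and 1204 across Both (adjusted p = 0.0255). The call of *Fzd7* was lost without TGF-β library 2, Both library 1 or Both library 3 (adjusted p of 0.0992, 0.102 and 0.0785). That of *Ror2* was lost without any 1 of TGF-β libraries 1, 2 and 3 and Both libraries 1 and 3 (adjusted p from 0.0720 to 0.117).

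For the ligands that rose most with TGF-β1 besides *Wnt10b*, no difference with PFI-3 passed the test in the main fit. That fit used all 9 libraries, TMM scaling and the filter on low counts. The log2 fold change of *Wnt9a* was -0.10 (95% confidence interval -0.26 to 0.05, adjusted p = 0.422). *Wnt2* had 238, 227 and 188 normalized counts across TGF-β and 165, 171 and 169 across Both, without overlap, and a log2 fold change of -0.37 (95% confidence interval -0.67 to -0.07, adjusted p = 0.121). It passed the test under 3 alternatives, with no filter on low counts (adjusted p = 0.0422), in a fit of only the 6 libraries compared (0.0337) and without Stem library 2 (0.0410). *Wnt11* had 16.2, 17.2 and 14.6 normalized counts across TGF-β and 6.30, 7.90 and 11.4 across Both, also without overlap, and a log2 fold change of -0.89 at low counts (95% confidence interval -1.53 to -0.25, adjusted p = 0.0833). For *Wnt5a* the interval ran from -0.14 to 0.07, for *Dkk3* from -0.19 to -0.01, for *Lrp6* from 0.04 to 0.20 and for *Axin2*, at its low counts, from -0.49 to 0.57. Without Stem library 2, which is in neither of these groups but in the fit, *Rspo2* and *Ctnnb1* were also lower with PFI-3 (log2 fold changes of -0.39 and -0.11, adjusted p of 0.0227 and 0.0252 from edgeR's test) and *Lrp6* and *Kremen1* higher (both 0.12, adjusted p of 0.0286 and 0.0372). *Rspo2* and *Lrp6* also passed without Stem library 1 (adjusted p of 0.0487 and 0.0470). These calls did not need a Stem library to be left out. With all 9 libraries, *Lrp6*, *Ctnnb1* and *Kremen1* passed with the replicate number as a block (adjusted p of 0.0383, 0.0435 and 0.0442). *Lrp6* also passed with DESeq2, and *Rspo2* with no filter on low counts (4.78e-04 from edgeR's test). *Rspo2*, *Ctnnb1*, *Lrp6* and *Kremen1* each passed in the fit of only the 6 libraries compared (adjusted p from 0.0113 to 0.0325). The median log2 fold change over the 44 tested genes was -0.02, against -0.00 over all tested genes.

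**Figure D5:**
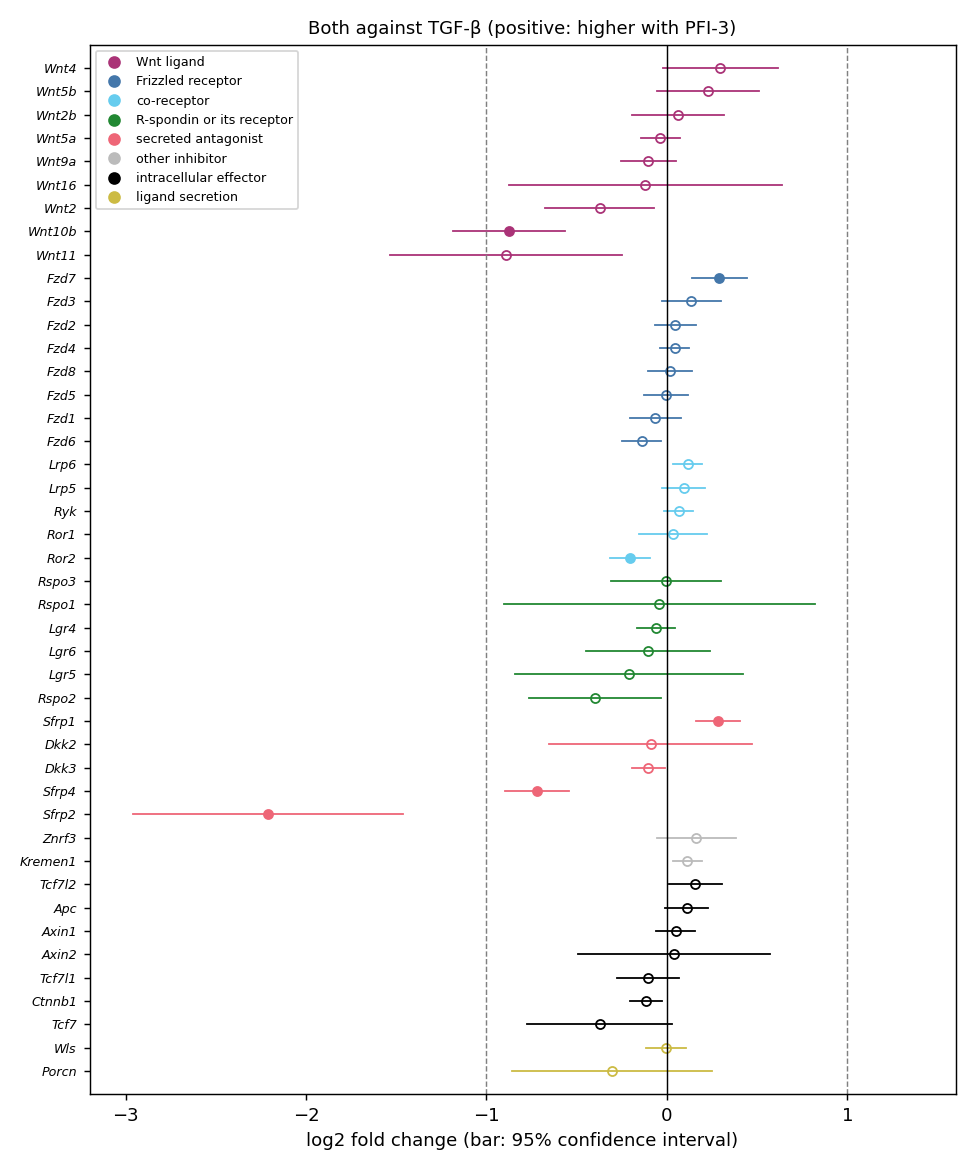
Log2 fold change of Both against TGF-β for the 44 tested genes, colored by role, with 95% confidence intervals from edgeR's fit. Filled points have an adjusted p below 0.05 (*Wnt10b*, *Fzd7*, *Ror2*, *Sfrp1*, *Sfrp4* and *Sfrp2*), dashed lines mark 2-fold, and *Sfrp2* alone lies beyond them.

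Between Stem and Both, which shares its libraries with the other comparisons, 7 genes rose and 14 fell past the threshold, 15.9% and 31.8% of the 44 tested, against 9.55% and 13.2% of all tested genes. At an adjusted p below 0.05 with no minimum change it was 17 and 24, 38.6% and 54.5% of the 44 tested, against 36.6% in each direction. *Tcf7l1*, just inside the 2-fold line in TGF-β, was past it in Both (log2 fold changes against Stem of -0.97 in TGF-β and -1.08 in Both). Between TGF-β and Both its log2 fold change was -0.10 (adjusted p = 0.459 from edgeR's test). Side by side, the log2 fold changes against Stem in TGF-β and in Both were 3.54 and 3.17 for *Wnt2*, -2.98 and -2.70 for *Sfrp1*, -3.77 and -4.49 for *Sfrp4* and -5.40 and -7.61 for *Sfrp2*. The rise of *Wnt10b* was at least 47.8-fold in Both. *Wnt11* was 2.15-fold higher than Stem in Both (adjusted p = 0.0307) and, besides TREAT, its call was lost under 6 alternatives, among them leaving out Stem library 1 or Both library 3 (adjusted p of 0.0925 and 0.168). *Rspo1* was 1.48 (adjusted p = 0.0178), and its call was lost without Stem library 2 (adjusted p = 0.0518). Without that library *Ctnnb1* passed the test between Stem and Both (log2 fold change 0.13, adjusted p = 0.00320), and *Znrf3* no longer did (adjusted p = 0.0873), nor did it without Stem library 3, Both library 1 or Both library 3 (0.0923, 0.0921 and 0.119).

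Other genes of the pathway were counted from lists chosen by function. Of 15 tested genes widely used as targets of β-catenin and TCF, 3 rose and 3 fell past 2-fold with TGF-β1, and the counts of all 5 lists stand against 10.6% rising and 14.5% falling among all tested genes. *Ccn4*, a matrix-associated signaling protein, had 2109, 1681 and 1903 normalized counts across Stem and 21209.7, 20963 and 21537 across TGF-β (log2 fold change 3.48, adjusted p = 1.07e-12). *Fgf18*, a growth factor, went by 3.46 (adjusted p = 7.60e-11) and *Jag1*, a Notch ligand, by 1.42 (adjusted p = 2.46e-08). The falls were *Axin2*, *Nkd1*, a feedback inhibitor that binds Dishevelled, with 1209, 1234 and 1345 normalized counts across Stem and 119, 123 and 108 across TGF-β (log2 fold change -3.44, adjusted p = 2.02e-12), and *Id2*, an inhibitor of basic helix-loop-helix factors (-3.28, adjusted p = 7.65e-11). The targets on the list therefore moved in both directions. Of 37 tested cytoplasmic and nuclear genes, 2 (5.41%) rose and 3 (8.11%) fell, both shares below those of all tested genes. *Nkd2*, the paralog of *Nkd1*, rose (1.53, adjusted p = 2.60e-08), and besides *Nkd1* the corepressors *Tle4* (-2.71, adjusted p = 4.68e-10) and *Tle2* (-1.87, adjusted p = 4.81e-09) fell.

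Of 27 tested genes of the planar polarity and calcium branches, 1 (3.70%) rose and 4 (14.8%) fell past 2-fold. Among all tested genes the shares were 10.6% and 14.5%. The falls were led by the formin *Daam2* with 1733, 1248 and 1670.4 normalized counts across Stem and 35.6, 17.2 and 27.3 across TGF-β (log2 fold change -5.86, adjusted p = 4.78e-11) and the cadherin *Dchs1* (-3.35, adjusted p = 5.24e-13). The polarity gene *Prickle2* also fell (-1.61, adjusted p = 3.54e-10). Of 17 tested surface and matrix modulators, 2 (11.8%) rose and 4 (23.5%) fell past 2-fold. The glypican *Gpc1* (1.94, adjusted p = 1.53e-11) and the heparan sulfatase *Sulf1* (1.42, adjusted p = 2.15e-11) rose, and the carboxypeptidase *Cpz* (-3.04, adjusted p = 1.68e-07) and the Wnt inhibitor *Tpbg* (-1.29, adjusted p = 4.37e-10) fell. Of 7 tested ligands, receptors and antagonists outside the 53, 0 rose and 4 (57.1%) fell past 2-fold. Among those that fell were *Igfbp4*, a binding protein that can also hold back Wnt signaling, with 58488, 65887 and 64826 normalized counts across Stem and 5469, 5566 and 4937 across TGF-β (log2 fold change -3.57, adjusted p = 8.13e-13) and the pseudokinase receptor *Ptk7* (-1.89, adjusted p = 1.43e-10). Between TGF-β and Both, at an adjusted p below 0.05 with no minimum change, 5 of the 15 targets were lower with PFI-3 and 0 higher, against 5.38% and 3.54% of all tested genes. In the other lists it was 2 lower and 1 higher of the 37 cytoplasmic and nuclear genes, 1 and 0 of the 27 polarity and calcium genes, 2 and 0 of the 17 modulators and 1 and 0 of the 7 others. Past 2-fold, 0 of the 15 targets were lower with PFI-3. The means of the feedback targets *Axin2* (18.7 in TGF-β and 19.2 in Both) and *Nkd1* (117 and 115) were nearly level, whereas that of *Ccnd1* went from 5541 to 2935.

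Markers of other cell types also differed between the groups. The summed normalized counts of 8 smooth muscle genes ran from 10616 to 13334 over the Stem libraries, 22735 to 25198 over TGF-β and 17436 to 18369 over Both. Of these, *Acta2*, *Tagln* and *Myocd* rose past 2-fold with TGF-β1, and *Myh11* fell past it (from a mean of 263 to 88.3, and 51.6 in Both). At an adjusted p below 0.05 with no minimum change, 4 of the 8 rose and 2 fell, against 37.3% and 37.7% of all tested genes. The mean of *Des* was higher in TGF-β (12.5 and 24.6) and that of *Lmod1* lower (504 and 311), each without overlap. *Cnn1* (378 and 335) and *Smtn* (2594 and 2485) overlapped between Stem and TGF-β. The 5 pericyte genes summed to 1540 to 2004, 22039 to 23457 and 13238 to 14616, and they too were split. *Rgs5* and *Cspg4* rose past 2-fold (from 125 to 6409 and from 904 to 16076), *Kcnj8* and *Abcc9* fell past it (from 56.8 to 4.71 and from 648 to 66.6), and *Higd1b* was at 0 in every library. The 8 endothelial genes summed to 172 to 406, 1339 to 1483 and 1030 to 1206, with *Erg* the highest in TGF-β and Both. Of 5 tested, *Kdr* and *Erg* rose past 2-fold with TGF-β1 and *Tek* and *Emcn* fell, while *Cdh5* and *Tie1* stayed below 10 in every library. The 8 leukocyte genes summed to 20.6 to 44.0, 72.0 to 107 and 155 to 157, with *Adgre1*, *Itgam* and *Cd3e* at 0, the 5 Schwann and neural genes to 42.9 to 52.2, 378 to 439 and 241 to 255, with *Sox10* at 0, and the 6 adipocyte genes, mostly *Fabp4*, to 183 to 218, 45.3 to 51.7 and 44.1 to 63.2. Their part in the Wnt results was not tested. Antisense genes that share exon bases with *Wnt5a*, *Fzd5*, *Fzd6*, *Sfrp2*, *Axin2*, *Ctnnb1* and *Tcf7l1* had counts far below those of the members in every group, and the strand setting of the counting is not given in the sources used here.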

How the data were processed

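Ribosome-depleted total RNA of cultured AdvSca1-SM cells was sequenced as 9 libraries, with 3 in each group. What the authors deposited is a table of raw counts, with 1 row per Ensembl gene and 1 column per library and no normalization. The study's methods describe alignment to GRCm39 with STAR, whereas the submitters' processing notes name HISAT2 2.2.1, SAMtools 1.13 and HTSeq 0.11.3, and which program made the deposited counts could not be settled. How the counting used strand and multiply aligned reads is not given in the sources used here, so overlapping genes and close paralogs carry an uncertainty.

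Groups were taken from the sample titles and symbols from a table of Ensembl identifiers, which matched 52083 of 55416 genes. The software was R 4.3.3 with edgeR 4.0.16 (which loads limma 3.58.1) and DESeq2 1.42.0. edgeR's filterByExpr kept 14879 genes, libraries were scaled by TMM, and a model of group alone was fitted to the 9 libraries together. edgeR's quasi-likelihood p-values were adjusted by the Benjamini-Hochberg method over every tested gene, and fold changes used a prior count of 0.125. The biological coefficient of variation was 6.13%. The study's methods name DESeq2, which was run as an alternative. A fold against a group at 0 was bounded from 3 counts per library. The smallest p of an exact permutation test on 1 gene, at 3 libraries against 3, is 0.1. The pipeline was tested on simulated counts. Exon lengths came from GENCODE M21 and promoters from RefSeq, both of GRCm38, so no gene coordinates are given for the counts.

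The 53 genes, the other gene lists and the tests were chosen with earlier results of these data known. All 53 genes may be named; of the other lists, at most the 3 largest rises and 3 largest falls past the threshold with a mean of at least 100 normalized counts are named. The alternatives were DESeq2, DESeq2's size factors or total counts for scaling, no low-count filter or one at a mean of 10, a fit restricted to the 6 libraries of a comparison, the replicate number as a block, 2 as the prior count, no fold minimum, TREAT, and each library left out. DESeq2 without Stem library 2 was added after the data were seen.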

Additional observations from a re-analysis of the deposited data

How the results depend on the processing

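The counts of genes past the threshold depended mainly on the fold minimum. Without it, 18 of the 53 genes rose and 22 fell between Stem and TGF-β, 2 rose and 4 fell between TGF-β and Both, and 17 rose and 24 fell between Stem and Both. With TREAT against 2-fold, 0 genes were lower between TGF-β and Both, as *Sfrp2* was lost, and 1 was lower at an unadjusted p below 0.05. Under the other alternatives, leaving out each library among them, these counts stayed within 1.5 times. Under scaling by total counts the median over all tested genes shifted to -0.12 between Stem and TGF-β and to -0.11 between Stem and Both on the log2 scale, and *Kremen1* then had -0.0025 between Stem and TGF-β, above that median. Of 132 log2 fold changes, those of the 44 tested genes in 3 comparisons, 12 lost an adjusted p below 0.05 under at least 1 alternative other than TREAT, among them that of *Kremen1* just given, and 9 gained one, of which 7 lay between TGF-β and Both (*Wnt2*, *Fzd6*, *Lrp6*, *Rspo2*, *Ctnnb1*, *Apc* and *Kremen1*). The other 2 were *Rspo2* between Stem and TGF-β and *Ctnnb1* between Stem and Both. Without the fold minimum, between TGF-β and Both, leaving out TGF-β library 2 gave 0 genes higher and 3 lower, leaving out Stem library 2 gave 4 and 7, and fitting only the 6 libraries compared gave 4 and 8.

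The groups share replicate numbers. With the replicate number as a block, 7 genes rose and 13 fell between Stem and TGF-β, 0 rose and 1 fell between TGF-β and Both, and 7 rose and 14 fell between Stem and Both, the same as without it; without the fold minimum the block gave 5 and 5 between TGF-β and Both. Deviations of same-numbered libraries correlated by -0.0601 to 0.177, over 0.1 in 3 of 9 pairs, and a library correlated best with its own number in 8 of 18 cases, so the numbers were not taken as pairs. Genes with few counts, such as *Rspo1*, *Lgr5*, *Wnt11*, *Notum* and *Wnt10a*, are limited by depth, and *Notum* and *Wnt10a* were called between Stem and TGF-β by DESeq2 and without the filter on low counts.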
